A study of Mus musculus with 6 samples.

Results

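The 34 genes described here encode the enzymes and transporters of glycolysis and a set of genes known to respond to low oxygen. They were chosen as a list of gene symbols, with earlier results of these data known, and all 34 symbols were found among the 30406 genes shared by the 6 libraries of the series. Aldoa stands in the files under 2 identifiers, of which the second held almost no reads, so its values are those of the first. Each value is a sum of unique molecular identifiers (UMIs, tags that count each captured RNA molecule once) over the cells of 1 class in 1 library, scaled to a common total and written as CPM.

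Glycolysis splits glucose into pyruvate in the cytosol and yields ATP without oxygen. Glucose enters through Slc2a transporters, hexokinases trap it, phosphofructokinase sets the pace, and lactate dehydrogenase and the Slc16a transporters turn pyruvate into lactate and move it across the membrane. In low oxygen the prolyl hydroxylases of the Egln family, which use oxygen to mark the factor Hif1a for destruction, slow down, and Hif1a then switches on genes of glycolysis together with Vegfa (blood vessel growth), Bnip3 (removal of mitochondria), Adm (a vasodilator peptide) and Pdk1 (a brake on pyruvate entry into mitochondria). Macrophages, neutrophils and activated T cells in tumours are known to rely on glycolysis, and Egln3 and Egln1 are themselves targets of the factor they restrain.

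The study profiled live CD45-positive cells (CD45 is the common surface protein of blood cells) sorted from Py8119 mammary tumours, a mouse breast tumour line injected into female mice, by droplet 3′ single-cell RNA sequencing. Of the 6 groups, each 1 library, the intact KO group came from mice lacking Mtdh, a gene known for promoting tumour growth and metastasis, and the intact WT group from wild-type mice. The other 4 groups were irradiated hosts given bone marrow: KO marrow in KO host, KO marrow in WT host, WT marrow in KO host and WT marrow in WT host, and 8 weeks passed between the transfer and the injection of tumour cells. The tumours of every group were taken 4 weeks after injection. The sources used here do not give the number of mice behind a library, the form of the KO allele, the ages of the mice or how fully donor marrow replaced the host's cells. With 1 library per group there was no replicate within a group: the genotype tests measure the disagreement among 3 matched pairs of libraries, and the cell comparisons measure the spread between libraries. The intact pair differs in host and marrow genotype together, so it is no replicate of either contrast alone. It enters the fits as the sum of both.

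The files held 41267 cell barcodes and between 85616443 and 142779550 UMIs per library, and 37988 cells were kept, of which 30911 fell into 1 of 4 classes set by marker genes. There were 63 to 1216 CD8 T cells, 3796 to 5644 macrophages, 65 to 477 neutrophils and 54 to 200 mesenchymal-like cells per library. Their summed depth was 472890 to 9318327 UMIs for CD8 T cells, 58556500 to 117506133 for macrophages, 211960 to 1036405 for neutrophils and 1144988 to 4019600 for mesenchymal-like cells, and the median per cell 5736 to 7888, 13923 to 19860, 1942 to 3042 and 19163 to 27675 UMIs in the same order, so that macrophages carry the firmest values and neutrophils the least firm. Marker genes outside the gates (4 for T cells, such as Trac, 4 for macrophages, such as Mrc1, and 4 for mesenchymal-like cells, such as Postn) were present in each class that they name, with 3 such genes for neutrophils (Retnlg, Hdc and Trem1) summing to 4208 to 6861 CPM. Mtdh, the targeted gene, stood at 12.8 to 19.1 CPM in macrophages of KO marrow or KO mice and at 109 to 113 CPM in those of WT origin, and was likewise lower in CD8 T cells and neutrophils of KO origin. In mesenchymal-like cells Mtdh stood at 392 to 467 CPM in all 6 libraries, whatever the genotype, and Ptprc, which encodes CD45, at 2.62 to 8.12 CPM, against 347 to 452 CPM in macrophages, although the cells had been sorted on CD45. Where host and marrow were both KO, Mtdh in these cells stood at 467 (intact KO) and 392 CPM (KO marrow in KO host). Host and marrow genotype in this class thus name the mouse, and Mtdh in the cells did not follow it. The origin of these cells was not tested. The intact libraries were processed with Cell Ranger 7.0.1 and the transplanted ones with 6.1.1, so that software, irradiation and transplantation cannot be told apart. A total of 217 barcodes occurred in more than 1 library.

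The share of a class's marker level found in another class served as the estimate of free RNA in the droplets. The source of that share was not tested. Macrophage marker genes that the gates did not use reached a median of 4.02% of their macrophage level in CD8 T cells, 8.03% in neutrophils and 2.75% in mesenchymal-like cells. Neutrophil markers reached 2.54% of their neutrophil level in macrophages. Where the level of a gene did not exceed what these shares would bring, it was not told apart from background.

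Bnip3, Pgk1 (phosphoglycerate kinase) and Eno1 (enolase) were the members that differed, higher or lower, in all 4 comparisons of cell states within macrophages and CD8 T cells, which share cells. None of these genes kept all of its calls under the alternatives. The call of Pgk1 for Cxcl9 was lost under several of them. Pgk1 and Eno1 lost their call for Havcr2 in CD8 T cells without intact KO. Bnip3 and Eno1 lost theirs for cycling CD8 T cells without intact KO, and also without KO marrow in KO host. The upstream sequences of these genes are shown because of their main calls, to set them beside the core motif of Hif1 response elements, here searched as ACGTG or, on the other strand, CACGT. The 250 bases before the RefSeq start are given 5′ to 3′ on the gene's strand (build GRCm38.p6), with the motif in capitals: Bnip3 lies at chr7:138909507-138909756 on the minus strand, Pgk1 at chrX:106186850-106187099 on the plus strand and Eno1, for the most downstream of its 3 listed starts, at chr4:150236974-150237223 on the plus strand.
Bnip3: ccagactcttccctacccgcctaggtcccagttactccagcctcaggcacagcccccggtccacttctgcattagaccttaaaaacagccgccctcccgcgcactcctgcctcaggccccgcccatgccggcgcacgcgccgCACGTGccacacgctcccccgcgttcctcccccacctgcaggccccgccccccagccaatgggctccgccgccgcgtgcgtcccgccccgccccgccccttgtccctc
Pgk1: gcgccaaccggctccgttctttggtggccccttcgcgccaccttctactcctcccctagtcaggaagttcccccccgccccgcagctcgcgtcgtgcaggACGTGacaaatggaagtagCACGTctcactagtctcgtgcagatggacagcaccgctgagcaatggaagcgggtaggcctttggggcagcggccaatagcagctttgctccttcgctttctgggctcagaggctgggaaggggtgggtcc
Eno1: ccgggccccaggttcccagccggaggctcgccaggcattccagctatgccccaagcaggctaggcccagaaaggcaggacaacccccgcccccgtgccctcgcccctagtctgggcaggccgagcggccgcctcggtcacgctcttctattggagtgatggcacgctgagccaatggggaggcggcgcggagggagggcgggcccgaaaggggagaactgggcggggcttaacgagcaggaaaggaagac
The Bnip3 window held 2 matches that overlap in a single CACGTG, at −108 and −107 from the start, and the Pgk1 window held 2 separate ones, at −150 and −131. None of the 3 Eno1 windows held these letters, and other forms of the motif, such as GCGTG, were not searched. In the 300 bases from 250 before to 50 after each start, 25 of 46 promoters of the members (54.3%) held the motif, and 22 of the 32 members with a listed promoter (68.8%), against 19.6% of all 32851 promoters and 21.8% of all 27025 genes. A match is a stretch of letters, not a measured binding site, and the promoters compared were not matched for base content. The list was chosen to hold genes known to respond to low oxygen, so a higher share was favoured by that choice and is no test. Windows of 1 gene can overlap, as those of Aldoa do, and then count the same match again. Promoters of Slc2a3 and Ndrg1 were not used here, and Ero1l was matched under the RefSeq name Ero1a.

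Of the glucose transporters, the one that differed most between the classes was Slc2a3, the high-affinity glucose transporter. In neutrophils Slc2a3 had a lowest, median and highest level of 146, 315 and 427 CPM over the 6 libraries, against 1.39, 1.53 and 3.52 CPM in macrophages. The neutrophil libraries all stood far above the macrophage libraries, at a log2 fold change of 7.47 ± 0.19 (SE, 6 libraries, edgeR adjusted p = 1.06e-49). The macrophage mean of 1.85 CPM lay below the 7.40 CPM that free neutrophil RNA would bring, and no library exceeded its own estimate. That estimate is thus high for this gene, and the macrophage level cannot be told apart from background. If it is background, the fold change understates the difference. In CD8 T cells Slc2a3 had 16.2, 33.4 and 45.8 CPM, again above every macrophage library (log2 fold change 3.99 ± 0.23, edgeR adjusted p = 3.56e-09), and in mesenchymal-like cells it had 0, 0.266 and 0.873 CPM. Slc2a1, the widespread basal glucose transporter, had 329, 445 and 603 CPM in neutrophils and 150, 199.5 and 286 CPM in macrophages, without overlap (log2 fold change 1.23 ± 0.13, edgeR adjusted p = 7.7e-17). The same transporter was lower than in macrophages in CD8 T cells (36.3, 45.0 and 76.3 CPM, log2 fold change −2.28) and in mesenchymal-like cells (78.4, 99.7 and 140 CPM, log2 fold change −1.26), both called.

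**Figure D1:**
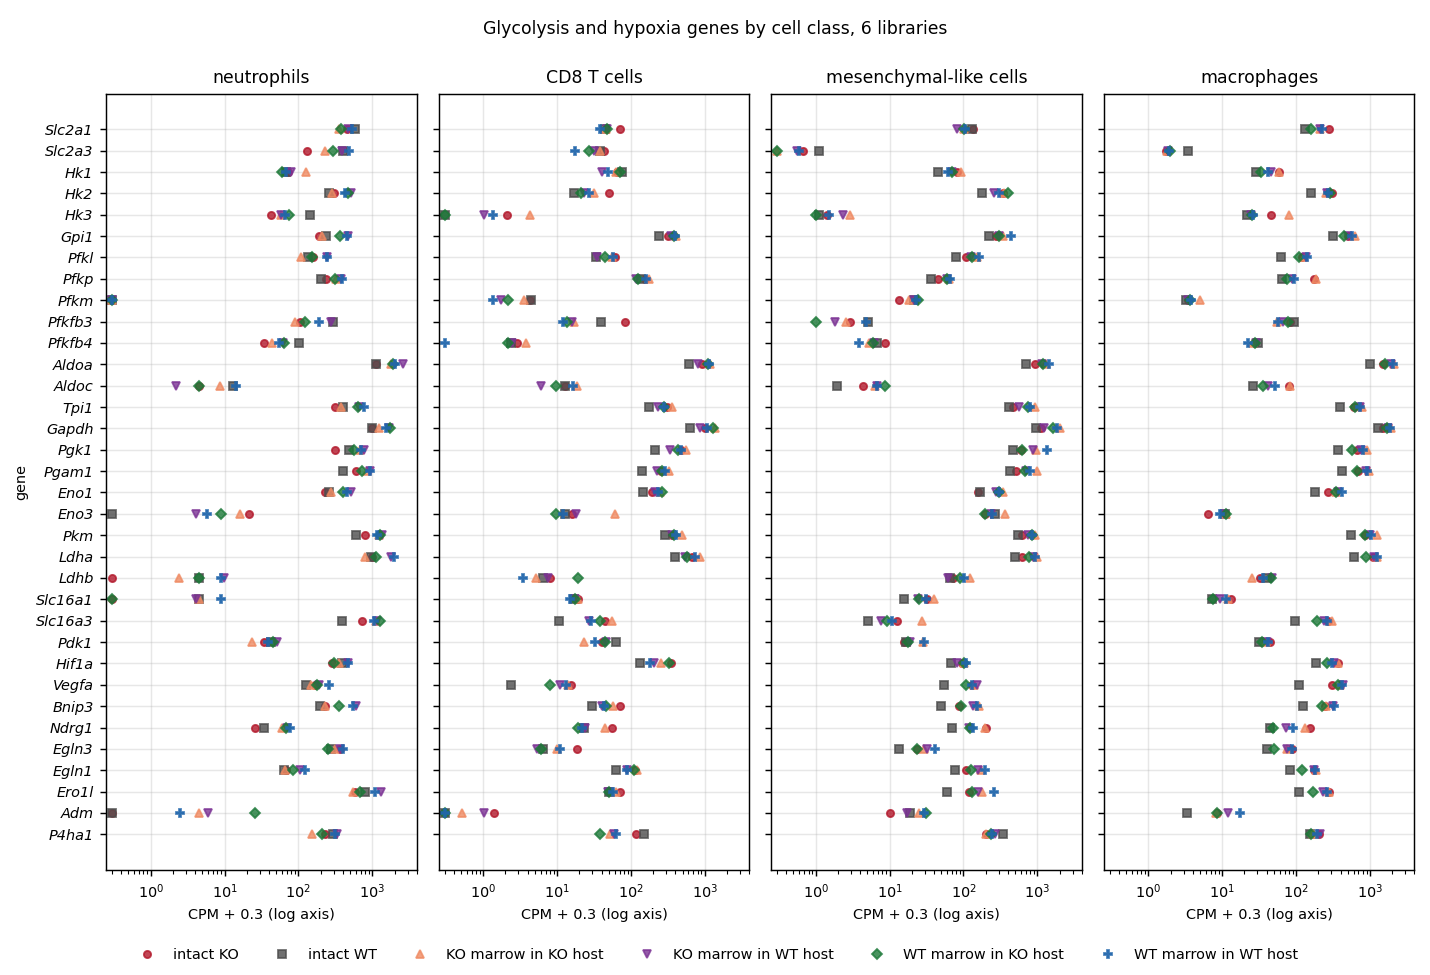
Level of each of the 34 genes in neutrophils, CD8 T cells, mesenchymal-like cells and macrophages, as CPM with TMM scaling plus 0.3 on a log axis. Each point is 1 of the 6 libraries, marked by group. Slc2a3 stands at 146 to 427 CPM unscaled in neutrophils and at 1.39 to 3.52 in macrophages, and Eno3 (188 to 355 CPM unscaled) in mesenchymal-like cells alone exceeds 100 CPM.

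A gene with an adjusted p under 0.05 in edgeR's quasi-likelihood test over all genes was called higher or lower. In neutrophils 15 of the 34 genes were higher than in macrophages, 8 were lower and 11 were not called. Of all 14082 genes tested, 58.3% were called, 20% higher and 38.2% lower, and the median log2 fold change was 0.18 over the 34 genes and −0.54 over all genes, unaltered for the 34 by setting Pfkm at its bound. After Slc2a3, the largest differences were at Egln3, Slc16a3 and Ero1l. Egln3 had 246, 305 and 415 CPM in neutrophils against 45.8, 70.9 and 91.6 CPM in macrophages (log2 fold change 2.31 ± 0.14, edgeR adjusted p = 2.19e-44). Slc16a3, the lactate exporter, had 406, 984 and 1230 CPM in neutrophils against 109.5, 244 and 280 CPM in macrophages (2.10 ± 0.13, edgeR adjusted p = 3.35e-39). Ero1l, an oxidase that forms disulfide bonds in the endoplasmic reticulum, had 507, 743 and 1162 CPM in neutrophils against 122, 240 and 291 CPM in macrophages (1.95 ± 0.23, edgeR adjusted p = 2.05e-05). For these genes every neutrophil library stood above every macrophage library. Pfkp, a phosphofructokinase subunit, and Pfkfb4, which makes the activator of phosphofructokinase, were also apart, at log2 fold changes of 1.57 and 1.15. Pfkfb3, the other such kinase, had the higher unscaled CPM within each of the 6 libraries (1.27 ± 0.17, edgeR adjusted p = 3.11e-08) with overlapping ranges, as were Hk1 (0.88) and Hk2 (0.58).

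The later enzymes of the pathway differed less. Aldoa, Pgk1, Pgam1, Tpi1, Eno1 and Pkm were not called between neutrophils and macrophages, with log2 fold changes from −0.29 to 0.21, though RLE size factors called Aldoa, Eno1 and Pkm and DESeq2 called Eno1, Pgam1 and Pkm, and neither called Gapdh. Ldha was called at 0.29 ± 0.13 (edgeR adjusted p = 0.047) and Gapdh at −0.29 ± 0.12 (edgeR adjusted p = 0.0339), both close to the threshold. The calls of Ldha, Gapdh and Hif1a (0.36) were each lost without at least 1 of the 6 libraries, all 3 of them without WT marrow in WT host. The other 20 calls were kept whichever library was left out. Among the 8 lower genes, Ldhb, the lactate dehydrogenase subunit of well-oxygenated tissue, had 0, 4.25 and 8.44 CPM in neutrophils against 23.1, 39.8 and 45.6 CPM in macrophages (log2 fold change −2.73 ± 0.31, edgeR adjusted p = 2.93e-16). Aldoc, a brain-type aldolase, was lower by a similar step (−2.69 ± 0.27). Vegfa had 131, 170 and 229 CPM in neutrophils and 124, 360 and 416 CPM in macrophages (−0.84 ± 0.14), and the ranges overlapped through the intact WT macrophages, the lowest of the 6. Pfkm, the muscle phosphofructokinase, had 0 UMIs among 3584614 in neutrophils, which allows up to 0.837 CPM over the 6 libraries, and was at least 4.07-fold lower than the 3.40 CPM of pooled macrophages. Such floors cover counting error only.

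In CD8 T cells 2 of the 34 genes were higher than in macrophages, 27 were lower and 5 were not called, against 56.6% called, 23.6% higher and 33% lower, of all 14896 genes tested. The median log2 fold change was −1.50 over the 34 genes and −0.12 over all genes. Besides Slc2a3, the monocarboxylate importer Slc16a1 was higher, with 14.1, 16.8 and 20.3 CPM in CD8 T cells against 7.16, 9.75 and 13.2 CPM in macrophages (0.58 ± 0.18, edgeR adjusted p = 0.0126). Hk2, the inducible hexokinase, had 16.9, 23.5 and 54.0 CPM in CD8 T cells against 180, 258 and 321 CPM in macrophages (−3.41 ± 0.15, edgeR adjusted p = 1.37e-10). Bnip3 had 29.6, 42.5 and 74.7 CPM in CD8 T cells against 141, 246 and 317 CPM in macrophages (−2.60 ± 0.15, edgeR adjusted p = 3.76e-09). These groups did not overlap, nor did those of Egln3 (−3.13), Slc16a3 (−2.99), Pfkfb4 (−3.60), Ldhb (−2.54) and Aldoc (−2.39). Vegfa (log2 fold change −5.12), Hk3, the leukocyte hexokinase (−4.76), and Adm (−4.61) were lowest, and their mean CD8 levels of 10.3, 1.25 and 0.344 CPM did not exceed the 12.9, 1.35 and 0.368 CPM that free macrophage RNA would bring. Hk1, Pfkp, Pdk1, Pfkm and Eno3 were not called.

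Some isoforms were higher in mesenchymal-like cells than in macrophages. The mean level of Ldha in mesenchymal-like cells still exceeded that of Ldhb, and the mean level of Pfkl that of Pfkm. Eno3, the muscle-type enolase, had 188, 231 and 355 CPM in mesenchymal-like cells against 6.34, 10.1 and 12.2 CPM in macrophages (log2 fold change 4.32 ± 0.13, edgeR adjusted p = 5.79e-11), and Pfkm had 13.8, 21.1 and 22.7 CPM against 3.09, 3.32 and 4.29 CPM in macrophages (2.15 ± 0.17, edgeR adjusted p = 1.82e-07). Both groups stood apart in all 6 libraries, as did Slc16a1 (1.14) and Ldhb (0.82). Adm (0.86), Ndrg1 (0.32), a stress-induced gene, and Hk1 (0.30) were higher with overlapping ranges. On the other side Pfkfb3 (−5.05), Hk3 (−4.91), Slc16a3 (−4.71) and Aldoc (−3.58) were lowest. Hif1a had 72.5, 97.2 and 103.5 CPM in mesenchymal-like cells against 212, 308 and 381 CPM in macrophages (−2.07 ± 0.09, edgeR adjusted p = 1.24e-09), with no overlap. In all, 7 of the 34 genes were higher, 24 were lower and 3 (Pgk1, Hk2 and P4ha1) were not called, against 69.2% called, 29.8% higher and 39.4% lower, of all 15332 genes, with medians of −0.75 over the 34 genes and −0.15 over all. Pfkl and Tpi1, called lower, had a higher unscaled CPM in the mesenchymal-like cells of 4 of the 6 libraries. The call of Pfkl was lost without intact KO, KO marrow in KO host or KO marrow in WT host, and that of Adm without either of the transplanted KO hosts.

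The class comparisons depend in part on the scaling. Without scaling factors the median log2 fold change of all genes moved to −0.645 in neutrophils, 0.1 in CD8 T cells and 0.206 in mesenchymal-like cells, and the calls over all genes became 2647 higher and 5803 lower, 4518 higher and 4059 lower, and 6156 higher and 4456 lower, in that order. Of the 34 genes, 14 were then higher and 10 lower in neutrophils, 4 higher and 27 lower in CD8 T cells, and 9 higher and 20 lower in mesenchymal-like cells. With RLE size factors, another scaling, the median in neutrophils moved to −0.302 over all genes and to 0.426 over the 34 genes, of which 25 were called, and DESeq2 gave −0.111 and 0.427, with 3272 genes higher and 3808 lower. None of the genes named by the rule turned its direction in a class comparison under these scalings. From a further list of 19 oxygen-response genes, 10 were higher and 4 lower in neutrophils than in macrophages (highest Kdm3a, a histone demethylase, at 1.72, and Plin2, a lipid droplet protein, at 1.47), 1 was higher and 14 lower in CD8 T cells, and 3 were higher and 8 lower in mesenchymal-like cells. Of 20 other glucose genes, 1 was higher and 6 lower of 14 tested in neutrophils, 0 and 6 of 14 in CD8 T cells, and 4 and 7 of 15 in mesenchymal-like cells. Of 7 pentose phosphate genes, 1 was higher and 2 lower in neutrophils, 1 and 4 in CD8 T cells, and 1 and 6 in mesenchymal-like cells.

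Neither host nor marrow genotype of Mtdh gave a call for any of the 34 genes in any class. With host genotype, edgeR called 1.75% of all genes in CD8 T cells, 0% in macrophages, 0.019% in neutrophils and 0.0678% in mesenchymal-like cells, and with marrow genotype 0.0464%, 0%, 0% and 0% in the same order, so that the test had few calls to give. At an unadjusted p under 0.05, 4 of 30 genes tested passed with host genotype in CD8 T cells, 8 of 28 in neutrophils, 1 of 32 in mesenchymal-like cells and 0 of 34 in macrophages, and with marrow genotype 0, 0, 2 and 1. Over all genes, 976 of 8614, 421 of 5251, 444 of 10319 and 641 of 15161 passed it with host genotype, in the same order. With marrow genotype 298, 245, 288 and 592 of the same totals did. DESeq2 called 0 of the 34 genes as well. The fitted directions are given as values that did not pass, and levels by genotype carry TMM scaling, which aligns the libraries on the bulk of their genes. Host and marrow fits use the same 6 libraries and share the intact pair. That pair differs in both genotypes at once, so counts over all 3 pairs mix host and marrow.

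**Figure D2:**
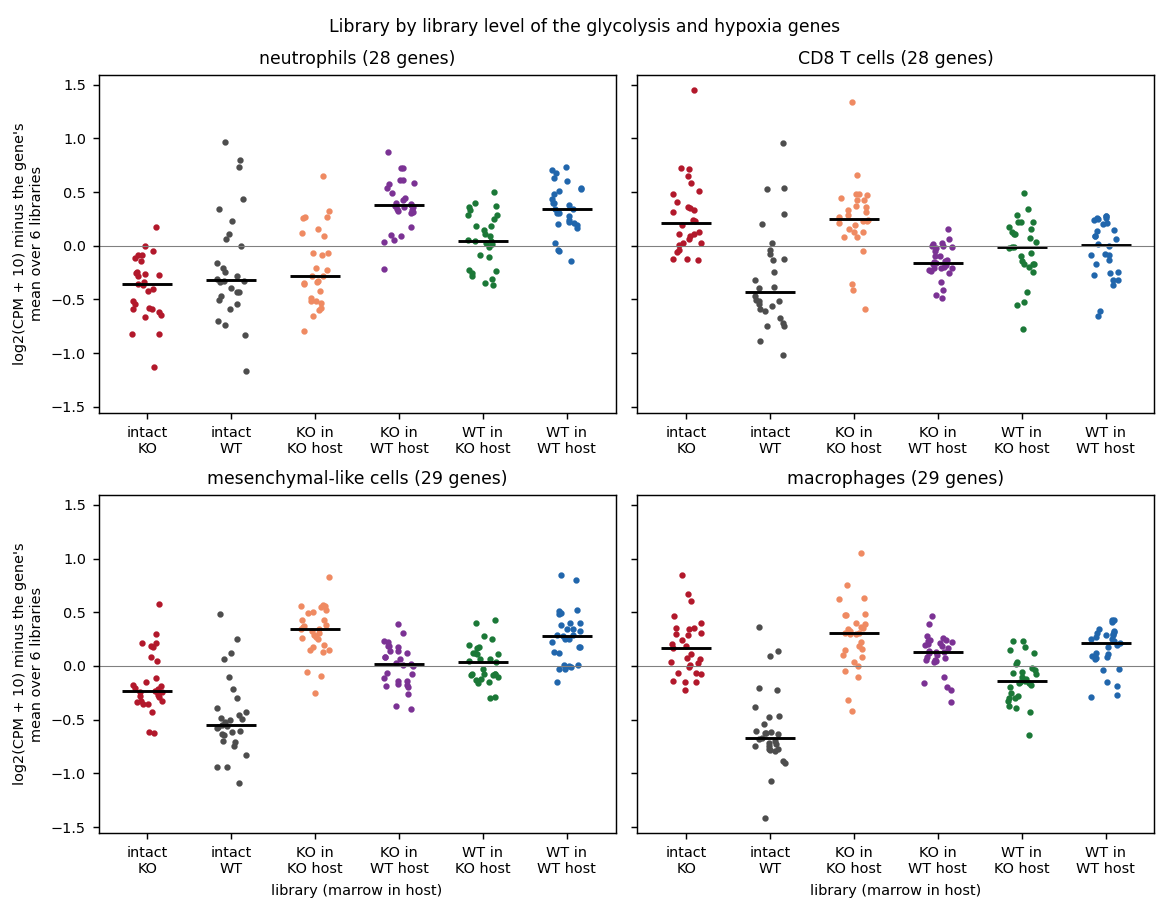
Level of each gene with a mean of at least 10 CPM in each library, as log2(CPM + 10) with TMM scaling minus the gene's mean over the 6 libraries, in 4 classes. Points are genes and bars are medians. The intact WT library lies lowest in macrophages (median −0.667) and mesenchymal-like cells (−0.546), and in neutrophils both WT hosts with transplanted marrow lie highest (0.376 and 0.34).

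With host genotype the fitted fold change was above 0 for 28 of 30 genes in CD8 T cells (below for Pdk1 and P4ha1), for 24 of 34 in macrophages, for 3 of 28 in neutrophils (Slc16a3, Pkm and Hk1) and for 21 of 32 in mesenchymal-like cells. With marrow genotype it was above 0 for 22 of 30, 30 of 34, 13 of 28 and 18 of 32 in the same order. Those of macrophages below 0 were Slc2a3, Pfkfb3, Ldhb and Eno3. The median log2 fold change of KO over WT hosts was 0.374 in CD8 T cells, 0.0422 in macrophages, −0.378 in neutrophils and 0.0869 in mesenchymal-like cells, and of KO over WT marrow 0.132, 0.365, −0.0138 and 0.0397. In CD8 T cells the host median rested on the pairs unequally: it was 0.643 in the intact pair and 0.416 with KO marrow, but −0.0569 with WT marrow, where 13 of 28 genes were higher in the KO host. Leaving out 1 library moved the fitted 0.374 to 0.236 without intact KO, 0.223 without intact WT, 0.0673 without KO marrow in WT host and 0.568 without WT marrow in KO host. Genes of a pathway vary together within a library, so the counts of directions are no test.

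In neutrophils the median log2 ratio of KO over WT hosts was −0.475 with KO marrow and −0.321 with WT marrow, but −0.0716 in the intact pair, where 14 of 28 genes were higher in KO. The fitted median of −0.378 moved to −0.213 without KO marrow in WT host and to −0.252 without KO marrow in KO host, and without scaling factors to −0.269, where that of all genes was 0.112. Of 28 genes with a mean of at least 10 CPM, 11 were lower in the KO host of all 3 pairs and 0 were higher, where 17.4% of all such genes were lower in all 3 and 15.5% higher. Of these, 6 had KO-host libraries that all stood below the WT-host libraries, as did 5.28% of all genes. Slc2a3 had 130, 230 and 295 CPM in neutrophils of intact KO, KO marrow in KO host and WT marrow in KO host, against 404, 390 and 479 CPM in those of intact WT, KO marrow in WT host and WT marrow in WT host (log2 fold change −0.85 ± 0.21, edgeR adjusted p = 0.283). Pfkfb3 had 105, 89.7 and 124 CPM in the 3 KO hosts in that order, against 291, 276 and 189 CPM in the WT hosts (−1.22 ± 0.26, edgeR adjusted p = 0.177). Every KO host was thus below every WT host for the transporter and for the kinase. Ero1l had 592, 552 and 679 CPM in KO hosts against 792, 1319 and 1078 CPM in WT hosts (−0.83, edgeR adjusted p = 0.305). Hif1a itself had 285, 355 and 303 CPM in KO hosts against 387, 463 and 472 CPM in WT hosts (−0.52, edgeR adjusted p = 0.55). P4ha1, a collagen prolyl hydroxylase (−0.71), and Slc2a1 (−0.39) showed the same separation of hosts. The intact KO and WT libraries held only 65 and 72 neutrophils. The neutrophils' own 3 markers summed to 4208, 4755 and 5699 CPM in KO hosts against 6861, 5145 and 6075 CPM in WT hosts, lower in the KO host of each pair. The 4 macrophage markers summed to 47.2, 174.5 and 300.2 CPM in neutrophils of KO hosts against 232, 275 and 284 CPM in WT hosts, and the 4 mesenchymal markers to 3.88 to 6.21 CPM against 4.37 to 56.0 CPM; their part in these values was not tested.

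**Figure D3:**
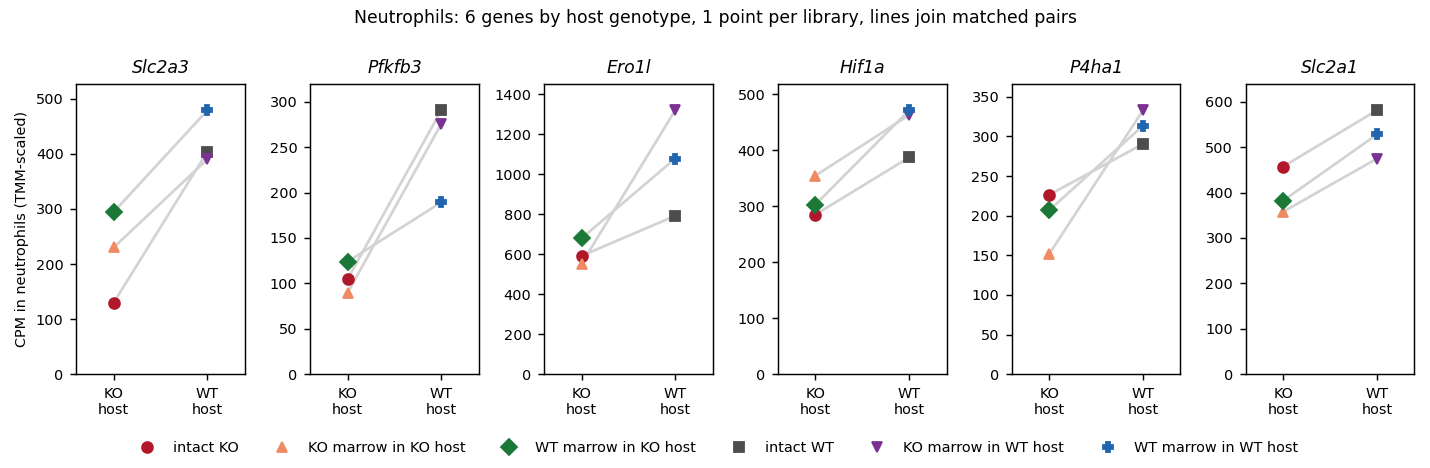
CPM (TMM-scaled) in neutrophils for the 6 genes named by the rule, KO hosts left and WT hosts right, 1 point per library. Grey lines join libraries that share marrow genotype or are both intact. The rule took only genes with 1 sign in all 3 pairs, so the lines of a panel run the same way by choice. Here they rise to the WT host, and the KO hosts lie below the WT hosts in all 6 panels. Slc2a3 lies between 130 and 295 CPM in KO hosts and between 390 and 479 CPM in WT hosts. Of all 28 genes with a mean of at least 10 CPM, 14 were higher in KO in the intact pair.

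In CD8 T cells 10 of 28 genes were higher in the KO host of all 3 pairs and 1 was lower, against 17.3% and 17.2% of all genes. Hif1a had 349, 251 and 325 CPM in CD8 T cells of intact KO, KO marrow in KO host and WT marrow in KO host, against 133, 207 and 182 CPM in those of intact WT, KO marrow in WT host and WT marrow in WT host (0.78 ± 0.22, edgeR adjusted p = 0.0984). Slc16a3 had 44.6, 54.9 and 38.0 CPM in KO hosts in that order, against 10.4, 26.5 and 28.7 CPM in WT hosts (0.95 ± 0.29, edgeR adjusted p = 0.149). The host groups did not overlap for either gene, nor for Egln1 (0.46), while those of Gapdh overlapped (0.54, edgeR adjusted p = 0.111). In all, 5 of the 28 genes stood higher in every KO host than in any WT host, as did 532 of all 8614 genes tested, at any level. Of the genes tested, 7426 had a mean of at least 10 CPM, as the 28 did. Slc16a3 and Gapdh passed the threshold without WT marrow in WT host, and Gapdh without WT marrow in KO host. The monocyte markers, Ccr2 and Ly6c2 (which memory CD8 T cells are known to carry too), summed to 164, 207 and 145 CPM in CD8 T cells of KO hosts against 290, 438 and 798 CPM in WT hosts, and the 4 macrophage markers to 44.6 to 132 CPM against 135 to 160 CPM. The make-up of the class moved with host too: Havcr2-carrying cells were 75 of 300, 467 of 1216 and 22 of 63 CD8 T cells in KO hosts, against 7 of 73, 30 of 231 and 9 of 138 in WT hosts, and naive-type cells were 118, 114 and 17 of the same totals in KO hosts, against 47, 121 and 44 in WT hosts. The intact WT library was the lowest of the 6 for 16 of the 28 genes, and for 27.8% of all genes. For all of these, their part in these values was not tested. P4ha1 was the gene lower in each KO host of a pair, with 118, 51.5 and 38.0 CPM in KO hosts against 149, 59.6 and 62.8 CPM in WT hosts (−0.42, edgeR adjusted p = 0.545). Slc2a3 had 42.8, 38.3 and 26.6 CPM in KO hosts against 37.4, 30.9 and 17.0 CPM in WT hosts (0.23, edgeR adjusted p = 0.856). Of the further lists, 1 gene passed with genotype in any class: Bhlhe40, a transcriptional repressor induced by low oxygen, rose in CD8 T cells of KO hosts, with 237, 243 and 344 CPM against 116, 154 and 175 CPM in WT hosts (0.94 ± 0.20, edgeR adjusted p = 0.02).

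In macrophages the intact WT library was the lowest of the 6 for 26 of 29 genes, where 34.9% of all genes were lowest there, as it was for 21 of 29 genes in mesenchymal-like cells (29% of all genes), and in macrophages KO marrow in KO host was the highest for 15. The median log2 ratio of KO over WT was 0.82 in the intact pair. It was 0.448 for KO over WT marrow in KO hosts and −0.0736 in WT hosts, and 0.125 for KO over WT hosts with KO marrow and −0.281 with WT marrow. Of 29 genes, 4 were higher with KO marrow in all 3 pairs (16.9% of all genes) and 0 lower (12.2%), while 0 went either way in all 3 host pairs (15% higher and 12.6% lower of all genes). Hk1 had 58.0, 58.3 and 46.2 CPM in macrophages of intact KO, KO marrow in KO host and KO marrow in WT host, against 28.4, 33.3 and 42.1 CPM in those of intact WT, WT marrow in KO host and WT marrow in WT host (0.60 ± 0.20, edgeR adjusted p = 0.881). Hif1a had 368, 368 and 324 CPM with KO marrow in that order, against 188, 266 and 311 CPM with WT marrow (0.44 ± 0.19, edgeR adjusted p = 0.881). The marrow groups did not overlap for these genes, and did for Vegfa (0.46) and P4ha1 (0.24). Among all 15161 genes tested, at any level, 415 were likewise higher with KO marrow without overlap. Of the genes tested, 7460 had a mean of at least 10 CPM, as the 29 members did.

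With marrow genotype in CD8 T cells, 5 of 28 genes were higher with KO marrow in all 3 pairs and 1 (Hk1) was lower, against 12.2% and 12.1% of all genes. The largest was Eno3, at 15.7, 60.9 and 17.9 CPM in intact KO, KO marrow in KO host and KO marrow in WT host, against 12.4, 9.50 and 11.7 CPM in intact WT, WT marrow in KO host and WT marrow in WT host, where KO marrow in KO host stood apart from the others (1.20 ± 0.57, edgeR adjusted p = 1). Ndrg1 (0.67), Pfkfb3 (0.57), Slc2a3 (0.46) and Slc16a1 (0.15) were the others. In neutrophils with KO marrow 1 of 28 genes, Hk1 (log2 fold change 0.50), was higher in all 3 pairs, against 13.2% of all genes. Lower in all 3 were 5 of the 28, Slc2a3, Tpi1, Hk3, Ndrg1 and Slc2a1 (−0.58 to −0.07), against 15.6% of all genes. In mesenchymal-like cells Hk2 had 346, 356 and 404 CPM in intact KO, KO marrow in KO host and WT marrow in KO host, against 179, 261 and 300.1 CPM in intact WT, KO marrow in WT host and WT marrow in WT host (0.61 ± 0.19, edgeR adjusted p = 0.859), and the host groups did not overlap. Among all 10319 genes tested there, at any level, 439 were likewise higher in KO hosts without overlap, and 7787 had a mean of at least 10 CPM. Of 29 genes there, 2 (Hk2 and Hk1, the latter at 0.37) were higher and 1 (P4ha1, −0.37) lower in all 3 host pairs, against 13.4% and 13.6% of all genes. With KO marrow 2 of the 29, Vegfa (0.56) and Hk1 (0.34), were higher in all 3 pairs, against 12.2% of all genes. Lower in all 3 were 2 of the 29, Adm (−0.67) and Pfkm (−0.31), against 11.7% of all genes. A host by marrow interaction was called for 0 of the 34 genes in each class, with a lowest edgeR adjusted p of 0.243 in CD8 T cells, 0.387 in macrophages, 1 in neutrophils and 0.29 in mesenchymal-like cells and 8, 5, 0 and 7 genes at an unadjusted p under 0.05. Over all genes edgeR called it for 0.465%, 0%, 0.127% and 1%. The share of all genes at the unadjusted threshold is not given here, so the unadjusted counts cannot be set against it.

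Across the 6 macrophage libraries the genes whose levels most resembled those of a member, among 2894 genes with a mean of at least 50 CPM, were Ehd1 (Pearson r = 0.999), Mpc1 (0.997) and Tagln2 (0.996) for Ldha, St6galnac4 (0.998), Sgk1 (0.996) and Ccrl2 (0.996) for Vegfa, Tpm4 (0.993), Rap1b (0.988) and Ube2d2a (0.987) for Bnip3, Atp6v0d1 (0.988), Tmem189 (0.985) and Nab1 (0.979) for Slc2a1, and Rassf1 (0.973), Nktr (0.954) and Atp2a2 (0.951) for Hk2. The median r with the other members was 0.936 for Ldha, 0.896 for Vegfa, 0.858 for Bnip3, 0.777 for Slc2a1 and 0.725 for Hk2, against 0.477, 0.562, 0.503, 0.204 and 0.315 with all genes. These describe 6 libraries, of which intact WT is low for most members, and the points share their library totals.

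Within macrophages most of the 34 genes were higher in cells carrying Arg1, the arginase known from tumour macrophages of a suppressive kind. Macrophages with at least 3 Arg1 UMIs (3428 to 4494 cells per library) were set against those with 0 (136 to 490 cells), within the same libraries. Of the 34 genes, 27 were higher in Arg1-carrying macrophages, 2 were lower and 5 (Hk3, Pfkm, Pfkp, Pfkfb3 and Pfkfb4) were not called, where 18.1% of all 14610 genes were called, 9.03% higher and 9.03% lower. The median log2 fold change was 0.78 over the 34 genes and −0.01 over all genes. The Arg1-carrying cells were also deeper, with median UMIs of 14399 to 20680 per cell against 7623 to 15427 in Arg1-free cells. With the gate genes thinned to 2000 UMIs per cell, all 29 calls were kept and Pfkp was called as well, with a median of 0.689 over the 34 genes.

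The largest rises were among the oxygen-response genes. Egln3 had 52.6, 76.5 and 99.2 CPM in Arg1-carrying macrophages against 8.25, 16.8 and 30.9 CPM in Arg1-free ones (log2 fold change 2.09 ± 0.14, edgeR adjusted p = 2e-06). Bnip3 had 156, 263 and 333 CPM in Arg1-carrying macrophages against 56.3, 91.3 and 123 CPM in Arg1-free ones (1.54 ± 0.08, edgeR adjusted p = 6.83e-09). Neither gene's ranges overlapped. Ero1l had 134, 251 and 309 CPM in Arg1-carrying macrophages against 54.6, 99.6 and 150.2 CPM in Arg1-free ones (1.29 ± 0.08, edgeR adjusted p = 1.85e-08). Vegfa had 139, 381 and 433 CPM in Arg1-carrying macrophages against 38.0, 183 and 224 CPM in Arg1-free ones (1.26 ± 0.22, edgeR adjusted p = 0.0119). Both were higher within all 6 libraries, with ranges that overlapped, as were Adm (1.75), Ldhb (1.22), Slc2a1 (1.01), Aldoc, Egln1 (0.98) and Slc16a3 (0.90). The enzymes between aldolase and lactate dehydrogenase, Aldoa, Tpi1, Gapdh, Pgk1, Pgam1, Eno1, Pkm and Ldha, rose together within a narrow span of 0.73 to 0.88. Hif1a itself rose by 0.55. Slc2a3 was lower (−1.79) at 0.901, 1.35 and 2.75 CPM in Arg1-carrying macrophages against 2.55, 4.49 and 11.6 CPM in Arg1-free ones, levels that free neutrophil RNA could bring, and Eno3 was lower by 0.48.

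**Figure D4:**
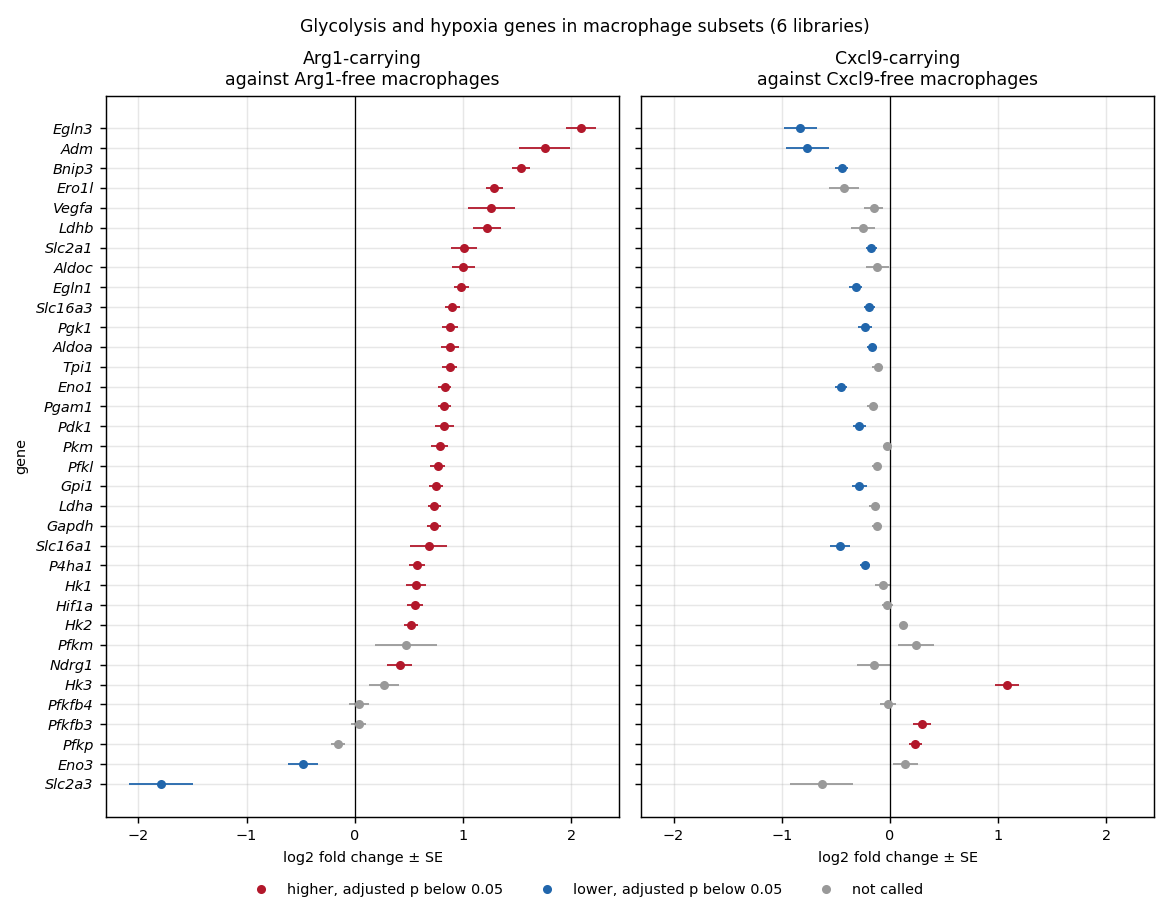
Log2 fold change ± SE of the 34 genes in Arg1-carrying against Arg1-free macrophages (left) and in Cxcl9-carrying against Cxcl9-free macrophages (right), over 6 libraries. Colour marks genes with an edgeR adjusted p below 0.05. On the left 27 genes lie above 0 and called, with Egln3 at 2.09, and on the right 13 are lower and called, with Hk3 the highest at 1.08.

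Of the further lists, 13 of 19 oxygen-response genes were higher in Arg1-carrying macrophages and 0 lower, with Ak4, a mitochondrial adenylate kinase (1.98), Epas1, the Hif1a paralogue (1.36), Ankrd37 (1.30) and Ddit4, an inhibitor of mTORC1 (1.23), in front. Of 14 other glucose genes tested, 2 were higher (Tigar and Bsg) and 0 lower, and of 7 pentose phosphate genes 2 were higher (Pgd and Tkt) and 0 lower. Whichever library was left out, 27 of the 29 calls were kept, the exceptions being Eno3 (lost without any of the transplanted libraries) and Ndrg1 (lost without intact KO, intact WT or WT marrow in WT host).

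Macrophages carrying Cxcl9, the chemokine that draws activated T cells, showed smaller differences. Those with at least 3 Cxcl9 UMIs numbered 53 to 2361 per library and those with 0 numbered 879 to 4900, with median UMIs of 14967 to 21999 per cell against 11196 to 19698 in Cxcl9-free cells. Here 3 of the 34 genes were higher, 13 were lower and 18 were not called, against 13.9% called, 7.04% higher and 6.89% lower, of all 14282 genes, with a median log2 fold change of −0.16 over the 34 genes and −0.01 over all genes. Hk3 had 37.3, 47.7 and 88.3 CPM in Cxcl9-carrying macrophages against 21.7, 23.8 and 47.9 CPM in Cxcl9-free ones (1.08 ± 0.11, edgeR adjusted p = 0.000146). Eno1 had 163, 268 and 302 CPM in Cxcl9-carrying macrophages against 210.0, 363 and 416 CPM in Cxcl9-free ones (−0.45 ± 0.05, edgeR adjusted p = 3.76e-05). Bnip3 had 91.6, 211 and 268 CPM in Cxcl9-carrying macrophages against 144, 301 and 320 CPM in Cxcl9-free ones (−0.45 ± 0.06, edgeR adjusted p = 0.000135). Hk3 was higher and Eno1 and Bnip3 lower within each of the 6 libraries, with ranges that overlapped between libraries. Egln3 (−0.83), Adm (−0.76), Slc16a1 (−0.46), Egln1 (−0.32), Gpi1 (−0.28), Pdk1 (−0.28), P4ha1 (−0.23) and Pgk1 (−0.23) were lower too, and Pfkfb3 (0.29) and Pfkp (0.24) higher. Hk3, Eno1, Bnip3, Slc16a1, Egln1, Pdk1 and P4ha1 kept their call whichever library was left out. With the gate genes thinned to 2000 UMIs, Adm, Aldoa, Pgk1 and Slc2a1 lost their call and Hk2 gained it. The count fell to 9 of the 16 without intact KO, to 10 without intact WT and to 10 of the 16 without KO marrow in KO host. Of the further lists, 1 of 19 oxygen-response genes was higher (Vhl, 0.27) and 11 were lower (Epas1 at −1.22, Ankrd37 at −0.72 and Ddit4 at −0.71 the most), 1 of 14 other glucose genes was higher (Slc2a6, 0.45), and 0 of 7 pentose phosphate genes were called.

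Among CD8 T cells, those carrying Havcr2, which encodes the exhaustion receptor TIM-3, were set against naive-type cells. Only 3 libraries held at least 20 cells of both kinds, intact KO, KO marrow in KO host and KO marrow in WT host, all with KO immune cells, with 75, 467 and 30 Havcr2-carrying cells and 118, 114 and 121 naive-type ones. Their median UMIs per cell were 5285 to 10034 in Havcr2-carrying cells and 5164 to 6369 in naive-type ones. Of 29 genes tested, 8 were higher in Havcr2-carrying cells and 0 lower, against 7.42% called, 3.46% higher and 3.96% lower, of all 7577 genes. The median log2 fold change was 0.49 over the 29 genes and −0.03 over all genes. Bnip3 had 121.9, 72.4 and 99.1 CPM in Havcr2-carrying cells of these libraries in that order, against 32.5, 24.5 and 19.2 CPM in naive-type cells (1.81 ± 0.25, edgeR adjusted p = 0.0001). Ero1l had 99.7, 73.3 and 104.6 CPM in Havcr2-carrying cells against 48.1, 33.0 and 19.2 CPM in naive-type cells (1.31 ± 0.26, edgeR adjusted p = 0.00284). Aldoa had 1397, 1346 and 1238 CPM in Havcr2-carrying cells against 525, 863 and 516 CPM in naive-type cells (1.01 ± 0.18, edgeR adjusted p = 0.00102). In all 3 genes the groups did not overlap. Eno1 (0.81), Tpi1 (0.80), Pgk1 (0.79), Gapdh (0.74) and Pkm (0.67) were the other calls, while Hif1a (0.31, edgeR adjusted p = 0.76) and Ldha (0.47, edgeR adjusted p = 0.166) were not called. Without intact KO 2 of the 8 calls were left, Bnip3 and Ero1l, and with the gate genes thinned to 2000 UMIs 1 was left, Bnip3.

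CD8 T cells in cycle, by their summed UMIs of cell-cycle genes, were set against non-cycling ones in the same 3 libraries, with 59, 290 and 25 cycling cells and 157, 562 and 156 non-cycling ones. Cycling cells were deeper, at a median of 10417 to 13486 UMIs per cell against 4977 to 5833 in non-cycling cells. Of 29 genes tested, 10 were higher and 0 lower, against 18.2% called, 11.5% higher and 6.73% lower, of all 8052 genes, and the median log2 fold change was 0.37 over the 29 genes and −0.04 over all genes. Tpi1, the triose isomerase, had 490, 465 and 416 CPM in cycling cells of intact KO, KO marrow in KO host and KO marrow in WT host, against 236, 260 and 169 CPM in non-cycling cells (0.97 ± 0.13, edgeR adjusted p = 3.52e-05). Ldha had 1010, 1108 and 714 CPM in cycling cells in that order, against 505, 624 and 465 CPM in non-cycling cells (0.75 ± 0.14, edgeR adjusted p = 0.000619). Eno3 had 30.2, 81.2 and 40.5 CPM in cycling cells against 8.35, 40.2 and 9.36 CPM in non-cycling cells (1.20 ± 0.23, edgeR adjusted p = 0.00126). The first pair of genes did not overlap between the groups, and Eno3 did, being high in both kinds of cell in KO marrow in KO host. Pgk1 (0.81), Gapdh (0.79), Slc16a3 (0.76), Pkm (0.59), Eno1 (0.52) and Pgam1 (0.51) were the other calls with higher values in all 3 libraries. Bnip3 was called at 0.69 (edgeR adjusted p = 0.0284) with 111.9 and 70.2 CPM in cycling cells of intact KO and KO marrow in KO host against 47.0 and 43.8 CPM in non-cycling cells, but it was lower in KO marrow in WT host, at 33.1 CPM against 38.6 CPM. Its fold change was −0.02 (edgeR adjusted p = 0.952) when classes were taken from clusters. With the gate genes thinned to 2000 UMIs 8 of the 10 calls were left, Eno3 and Bnip3 being lost. Without KO marrow in KO host 4 of the 10 calls were left, Eno3, Gapdh, Pgk1 and Tpi1, and without intact KO 8 were left, Bnip3 and Eno1 being lost.

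**Figure D5:**
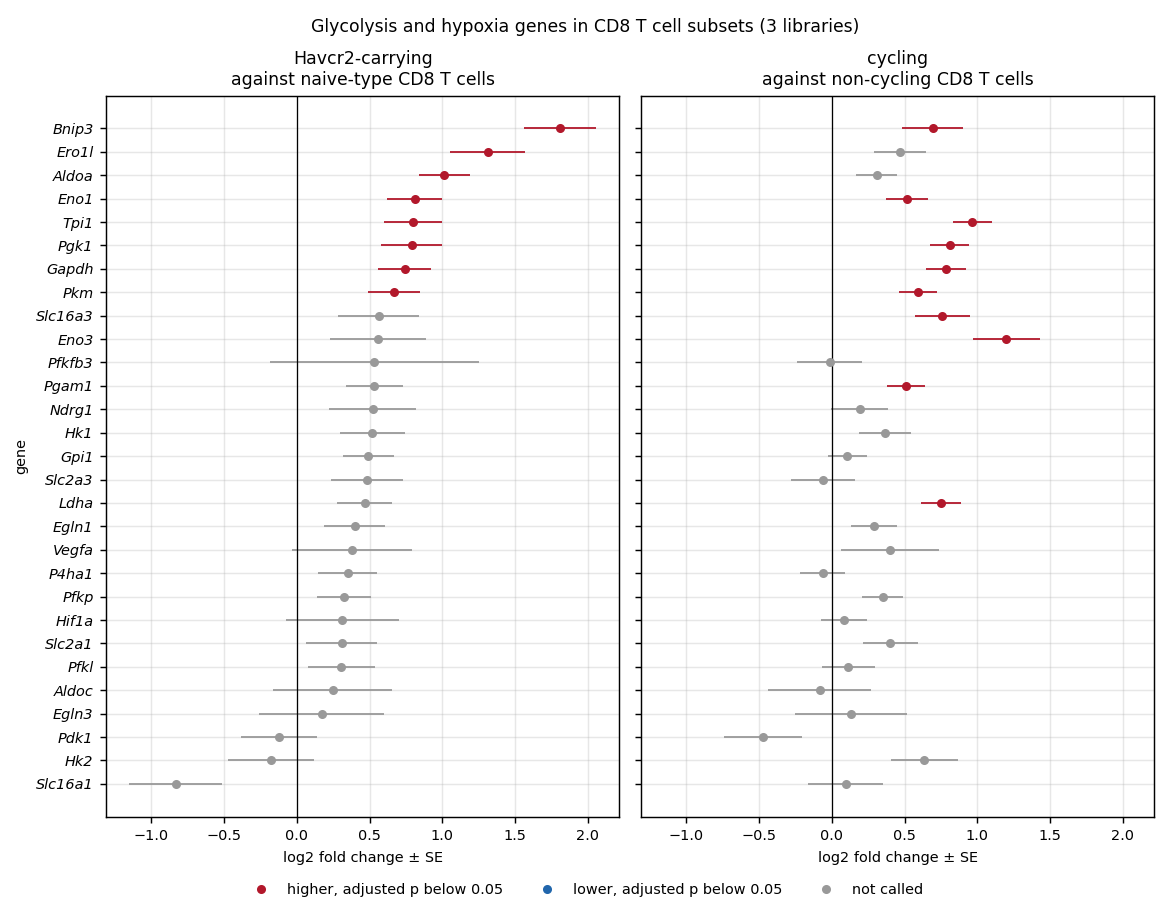
Log2 fold change ± SE of the 29 genes tested in Havcr2-carrying against naive-type CD8 T cells (left) and in cycling against non-cycling CD8 T cells (right), over 3 libraries. Colour marks genes with an edgeR adjusted p below 0.05. On the left 8 genes are called higher, led by Bnip3 at 1.81, and on the right 10, led by Eno3 at 1.20.

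Of the further lists, in Havcr2-carrying cells 1 of 17 oxygen-response genes tested was higher (Epas1, 1.70) and 1 lower (Arnt, the partner of Hif1a, −1.10), and 0 of 6 other glucose genes and 0 of 7 pentose phosphate genes were called. In cycling cells 3 of 17 oxygen-response genes were higher (Higd1a, Mif and Fam162a) and 1 lower (Hif1an, an inhibitor of Hif1a, −0.82), 1 of 7 other glucose genes was higher (Bsg, a chaperone of lactate transporters, 0.75) and 1 of 7 pentose phosphate genes was higher (Tkt, 0.68).

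Gapdh, Aldoa, Pgk1, Ldha and Eno1 have processed copies elsewhere in the mouse genome, and the sources used here do not say how reads shared between near-identical copies were counted, so their levels are less certain than their differences within a library.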

How the data were processed

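The authors deposited UMI counts for each gene in each cell barcode, not normalized, made from 10x Chromium 3′ libraries with Cell Ranger 7.0.1 (intact) or 6.1.1 (transplanted), per the file headers, against mm10, per the submitters' processing notes, which also name Seurat. Rows were joined on Ensembl identifiers. The sources used here do not say whether intron reads count.

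Kept cells had 500 UMIs or more, 200 genes or more and no more than 15% mitochondrial UMIs, and the 6% with the highest Scrublet scores per library were left out (scanpy 1.11.5), since its own threshold marked 0 cells of either intact library. Classes were gated per cell on raw UMIs of marker genes: CD8 T cells (Cd3d, Cd3e, Cd3g with Cd8a, Cd8b1), macrophages (genes including C1qa, C1qb, C1qc, Csf1r and Adgre1), neutrophils (S100a8, S100a9, Csf3r, Cxcr2, Il1r2, Mmp9) and mesenchymal-like cells (Krt8, Krt18, Sparc, Col1a1, Col1a2, Col3a1). Leiden clusters (leidenalg 0.10.2, resolution 1; 28 clusters) served an alternative. UMIs were summed per class and library and tested in R 4.3.3 by the quasi-likelihood test of edgeR 4.0.16 (robust, with TMM scaling and filterByExpr) over all genes with Benjamini-Hochberg adjustment at 0.05. Genotype fits had additive terms for transplantation, host and marrow (2 residual degrees of freedom), and class or subset comparisons had the library as a block with at least 20 cells of each kind. Each SE was taken as the size of the log2 fold change over the root of its F statistic, so it restates the test. Levels by genotype carry TMM scaling, and levels by class or subset do not. DESeq2 1.42.0 was an alternative. Scripts were tested on simulated data with 4-fold changes, and smaller changes were not simulated. False calls made up 8.13% to 10.2% of the calls with host genotype in the 4 classes. They made up 13.4% for neutrophils against macrophages and 12.3% for Arg1. All of these shares are above the one that the threshold of 0.05 names.

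Members and lists were chosen with earlier results of these data known. Genes were named by rule: any member that passed; per class and factor up to 6 with a mean of at least 10 CPM and 1 sign in all 3 pairs, by the largest smallest pair ratio; per comparison up to 10 per direction by fold change; further genes only from lists of 19 oxygen-response, 20 other glucose and 7 pentose phosphate genes.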

Additional observations from a re-analysis of the deposited data

How the results depend on the processing

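No paired analysis was possible because each group holds 1 library, so that replicate numbers form no pairs; the library block of the class and subset comparisons and the matched pairs of groups behind the genotype fits belong to the design. With host genotype in CD8 T cells, 2 of the 34 genes were called with no count filter (Hif1a and Gapdh), and 0 to 2 when 1 library was left out. With host genotype in neutrophils 1 was called with no count filter (Pfkfb3), and in mesenchymal-like cells 0 to 1 when 1 library was left out (Slc16a3, without WT marrow in KO host). Dropping the library block left 13 of the 34 genes called for Arg1 and 0 for Cxcl9, Havcr2 and cycling. Leaving out 1 library gave 9 to 21 for Cxcl9, 2 to 11 for Havcr2 and 4 to 10 for cycling. For Havcr2, DESeq2 called 4, classes from clusters 3 and thinned gate genes 1, and for cycling DESeq2 called 6. The fold change of Bnip3 in cycling cells turned to −0.024 with classes from clusters. The causes were not tested.

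Of 2059 alternative values for 125 named results, 1930 kept direction and side of the threshold, 122 lost the call, 6 gained it and 1 changed sign. Over all genes the calls ranged from 0 (no transplanted term) to 388 (no count filter) around 151 with host genotype in CD8 T cells, and to 73 around 4 with marrow genotype. They ranged from 0 to 131 and 68 around 0 with host and marrow genotype in macrophages, to 70 around 1 and 39 around 0 in neutrophils, and to 281 around 7 and 216 around 0 in mesenchymal-like cells. For Arg1 they were 450 to 3708 around 2639, for Cxcl9 60 to 2183 around 1989, for Havcr2 1 to 808 around 562 and for cycling 253 to 1715 around 1467. Clusters with at least 50% gated cells gave no value for mesenchymal-like cells. Clusters with at least 25% gated cells, the transplanted libraries alone and no scaling factors were alternatives added after seeing the data. The genotype fits had 2 residual degrees of freedom in every class.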
